A study of Mus musculus with 3 samples.

Results

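The junction genes of epithelium and endothelium were followed in mouse mammary cells: claudins and other tight junction genes, cadherins and catenins, desmosomal genes, and connexins. They were taken by gene name, and 94 of the 22378 listed genes qualified. Of these, 93 had a value in every library and 1, Cdh15, had none. Epithelial sheets are held together by 3 kinds of adhesive contact. Tight junctions, built from claudins and occludin on ZO scaffold proteins, seal the space between cells. Adherens junctions bind cadherins to the actin cytoskeleton through catenins. Desmosomes bind desmogleins and desmocollins to keratin filaments through plakoglobin, plakophilins and desmoplakin. Gap junctions are channels of connexins that let small molecules pass from cell to cell. In the mammary gland, an inner luminal layer that faces the duct is wrapped by an outer basal (myoepithelial) layer, and the layers are known to use partly different junction genes.

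RNA was sequenced from 3 pools of FVB-background mice, with 1 library per group and no replicates. LCC (lung-colonizing cells) were dissociated mammary cells of FVB.GFP females, or FVB mammary cells stained with the dye DDAO, that had been injected into a vein of FVB recipients and were sorted by that label from the dissociated lungs on day 1. Each experiment gave the cells of 8 donors to 4 recipients in 2 injections, and the library pooled 15 experiments, 42 lungs and 455880 cells. E-Int29-Hi were mammary cells gated on intermediate EpCAM together with high CD29, described as holding the colonizing cells, and combined 3 samples. MG was labelled as intact mammary gland and likewise combined 3 samples. No mouse ages are at hand. The stated aim was to find genes that differ between LCC, E-Int29-Hi and MG.

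Expression was given as FPKM (sequenced fragments scaled to gene length and to the fragments mapped), which allows levels to be compared between genes. Read totals are unknown, and a value listed at 0 may be a failed estimate. Every log2 fold is log2 of (FPKM + 1) in 1 library over (FPKM + 1) in the other, a scale that understates differences of low genes. A gene was compared where it reached 1 FPKM in either library, and was counted as higher or lower where it stood at least 4-fold apart on that scale. With 1 library per group no difference has a replicate check, no test was possible and no p-value is given. Any 2 of the comparisons share a library, so their values are set side by side and are not independent.

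The labels were checked against marker genes, given as the FPKM summed over each list. The 12 basal markers summed to 721 in LCC, against 8589 in E-Int29-Hi and 632 in MG. The 14 luminal markers summed to 4259 in LCC, against 341 in E-Int29-Hi and 2295 in MG. Most of each luminal sum came from the keratins Krt8 and Krt18, in all 3 libraries. Gene by gene, 0 of the 14 were higher and 5 were lower in LCC than in MG (Elf5, Prlr, Pgr, Esr1 and Prom1), and the median log2 fold was -1.06. Endothelial markers (15 genes) summed to 258, 242 and 736, and fibroblast markers (10 genes) to 1430, 142 and 3157 in LCC, E-Int29-Hi and MG. No gene of these 4 lists was at 0 in any library. Lung epithelial markers (14 genes) summed to 675 in LCC, against 16.6 in E-Int29-Hi and 17.7 in MG. The club cell gene Scgb1a1 made up 572 FPKM of the LCC sum. Scgb3a2 and Nkx2-1 were listed at 0 in both E-Int29-Hi and MG, and no gene of that list was at 0 in LCC. Salivary gland markers (9 genes) summed to 1.91 in LCC, against 341 in E-Int29-Hi and 4.78 in MG. Adipocyte markers (6 genes) summed to only 23.6 in the MG library. Schwann cell markers (7 genes) summed to 51.6, 114 and 169, and muscle and heart markers (7 genes) to 13.4, 3.49 and 9.04, for LCC, E-Int29-Hi and MG.

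The main difference lay between E-Int29-Hi and the other libraries. A set of tight junction genes that includes Cldn3, Cldn4, Cldn7 and Ocln stood at least 4-fold lower in E-Int29-Hi than in LCC and in MG. P-cadherin (Cdh3) stood at least 4-fold higher in E-Int29-Hi than in both. E-cadherin (Cdh1) was within a narrow range of 139.9 to 171.5 FPKM in all 3 libraries. LCC was 4-fold apart from MG for 5 junction genes, among them the endothelial genes Cldn5 and Cdh5.

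Of the 93 genes with a value, 51 reached 1 FPKM in some library, 42 were under 1 FPKM in all, and 4 of those (Cdh26, Cldn16, Cldn21 and Gjd2) were listed at 0 throughout. At 1 FPKM or more stood 41 genes in LCC, against 41 in E-Int29-Hi and 45 in MG. The genes together held 1949 FPKM in LCC, 2443 FPKM in E-Int29-Hi and 2187 FPKM in MG, which is 0.519%, 0.750% and 0.759% of each library's summed FPKM.

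In LCC over E-Int29-Hi, 8 of 48 compared junction genes were higher and 3 lower, where 4.64% of all 12147 compared genes were higher and 4.35% lower. The 8 were Cldn1, Cldn3, Cldn4, Cldn7, Ocln, Cdh11, Pkp2 and Gjb2, and Cdh3 and Pkp4 were among the 3. The median log2 fold was -0.43 over the junction genes and 0.26 over all genes. In LCC over MG, 1 of 48 was higher (Gjb5) and 4 were lower (Cldn5, Cldn10, Cldn15 and Cdh5), where 1.33% of all genes were higher and 2.63% lower. That median was -0.30, against 0.01 over all genes. In E-Int29-Hi over MG, 4 of 49 were higher (Cdh3 and Pkp1 among them) and 10 were lower (Cldn1, Cldn3, Cldn4, Cldn5, Cldn6, Cldn7, Ocln, Tjp3, Cdh5 and Pkp2). The shares over all genes were 2.60% higher and 3.97% lower, and the medians were -0.51 over the junction genes and -0.23 over all genes.

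**Figure D1:**
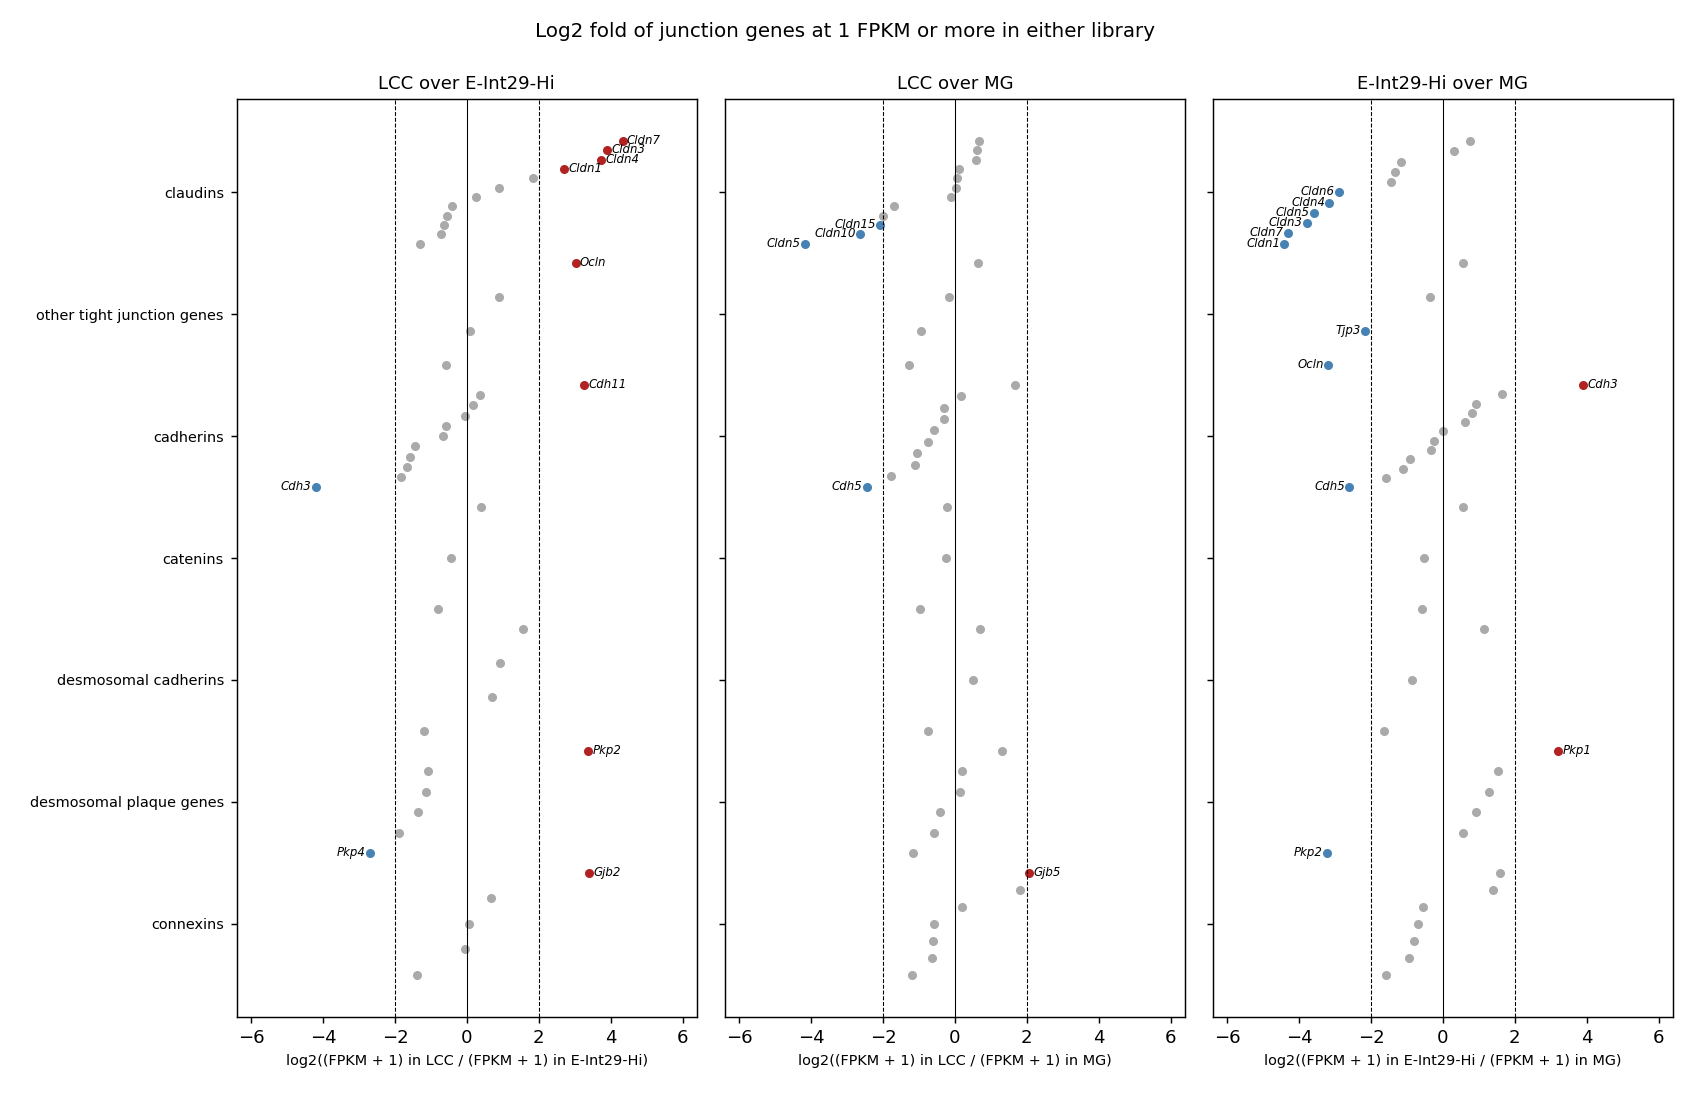
Log2 fold of the junction genes shown, at 1 FPKM or more in either library (x axis, log2 of FPKM + 1 over FPKM + 1) by gene group (y axis) for LCC over E-Int29-Hi, LCC over MG and E-Int29-Hi over MG, with dashed lines at a 4-fold difference and coloured, named points beyond them. The 4 named claudins at the upper right of the first panel, all higher in LCC, return at the lower left of the third panel among the 6 claudins lower in E-Int29-Hi relative to MG.

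Relative to both other libraries at once, 6 of 51 junction genes were at least 4-fold lower in E-Int29-Hi (Cldn1, Cldn3, Cldn4, Cldn7, Ocln and Pkp2), where 1.45% of 12772 genes were. Another 2, Cdh3 among them, were higher in E-Int29-Hi, where 1.99% of all genes were. MG stood higher than both other libraries for 2 of 51, Cldn5 and Cdh5, with 1.16% over all genes. LCC stood apart from both for 0 of 51 in either direction, where 0.987% of all genes were higher and 0.587% lower. MG stood lower than both for 0 of 51, with 0.0626% over all genes.

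Claudins are the 4-pass membrane proteins that form the strands of tight junctions and set what they let through. Cldn4, a sealing claudin of simple epithelia, was the most abundant junction gene of LCC and MG, at 549.8 FPKM in LCC, 40.2 FPKM in E-Int29-Hi and 366 FPKM in MG. It ranked 86 among all genes in LCC, against 1479 in E-Int29-Hi and 86 in MG. The log2 fold was 3.74 for LCC over E-Int29-Hi, 0.58 for LCC over MG and -3.16 for E-Int29-Hi over MG. Its chromosomal neighbour Cldn3, like Cldn4 a receptor for Clostridium perfringens enterotoxin, stood at 68.1 FPKM in LCC, 3.66 FPKM in E-Int29-Hi and 63.3 FPKM in MG. In FPKM that was 18.6-fold higher in LCC than in E-Int29-Hi and within 1.08-fold of MG. Cldn7, an epithelial claudin that binds EpCAM, stood at 60.6 FPKM in LCC, 2.06 FPKM in E-Int29-Hi and 59.5 FPKM in MG, with log2 folds of 4.33 for LCC over E-Int29-Hi and 0.03 for LCC over MG. Cldn1, needed for the water barrier of the skin, had 17.1 FPKM in LCC, 1.78 FPKM in E-Int29-Hi and 57.8 FPKM in MG. It was the 1 of these 4 claudins in which LCC lay between the other libraries, with a log2 fold of 2.70 over E-Int29-Hi and -1.70 over MG. Together the 4 genes held 695.5 FPKM in LCC, 47.7 FPKM in E-Int29-Hi and 546.9 FPKM in MG, or 92.3%, 35.7% and 73.6% of all claudin FPKM. That total includes Cldn25, a gene now called Cldnd1, which alone held 42.9% of it in E-Int29-Hi.

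Of the 5 tight junction genes at least 4-fold lower in E-Int29-Hi than in both other libraries, the 250 bases before the annotated starts of Cldn4, Cldn3 and Cldn7, the 3 with the highest FPKM in LCC, are shown. They are RefSeq sequences of the mouse build GRCm38.p6, read 5′ to 3′ on the gene's strand and ending at the base before the start. Capitals mark matches, on either strand, to CAGGTG (an E-box bound by Snail and Zeb factors), TGANTCA (the AP-1 motif) or GGGCGG (a GC box bound by Sp factors). Cldn4 lies on the minus strand at chr5:134946935-134947184, Cldn3 on the plus strand at chr5:134985964-134986213, and Cldn7 on the plus strand at chr11:69964529-69964778.
Cldn4: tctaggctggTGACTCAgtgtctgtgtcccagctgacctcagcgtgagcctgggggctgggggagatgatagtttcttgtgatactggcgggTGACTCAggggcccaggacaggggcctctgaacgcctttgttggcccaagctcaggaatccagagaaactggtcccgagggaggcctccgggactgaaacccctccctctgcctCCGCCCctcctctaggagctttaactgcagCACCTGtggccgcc
Cldn3: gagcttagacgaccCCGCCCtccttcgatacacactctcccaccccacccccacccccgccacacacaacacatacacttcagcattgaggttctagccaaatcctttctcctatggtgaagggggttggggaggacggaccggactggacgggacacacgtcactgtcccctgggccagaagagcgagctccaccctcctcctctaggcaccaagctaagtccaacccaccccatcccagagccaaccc
Cldn7: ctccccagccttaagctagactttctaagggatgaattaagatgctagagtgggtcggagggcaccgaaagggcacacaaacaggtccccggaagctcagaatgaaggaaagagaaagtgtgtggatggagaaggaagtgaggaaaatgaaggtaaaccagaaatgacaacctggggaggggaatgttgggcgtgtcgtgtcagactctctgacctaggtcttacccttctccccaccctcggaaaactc
The Cldn4 stretch held the AP-1 letters at 2 places, whose first bases lie at -240 and -158 from the start, with CACCTG at -14 and CCGCCC at -44. The Cldn3 stretch held CCGCCC at -236, and the Cldn7 stretch held none of the 3 motifs. Of the genes not shown, Cldn1 held GGGCGG at -42 and -14, and Ocln held CCGCCC at -112. Cldn7 and Ocln each had 2 listed starts, and only the one nearest the RefSeq gene start was read. The E-box letters were in 17.2% of 32851 RefSeq stretches of this length and in 15 of 72 from 53 of the 94 junction genes. The other junction genes had no stretch in these counts, so the shares do not describe the whole set. The AP-1 letters were in 6.75% of all and 4 of 72, and the GC box letters in 32.7% of all and 31 of 72. These matches describe letters only.

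Cldn5, the main claudin of endothelium, had another order, at 6.23 FPKM in LCC, 9.67 FPKM in E-Int29-Hi and 128 FPKM in MG. The log2 fold was -4.16 for LCC over MG and -3.60 for E-Int29-Hi over MG, and only -0.56 for LCC over E-Int29-Hi. Cldn10, which forms ion-selective pores, stood at 0.393 FPKM in LCC, 2.45 FPKM in E-Int29-Hi and 7.62 FPKM in MG. Cldn15, a cation pore of the intestine, had 0.344 FPKM in LCC, 1.07 FPKM in E-Int29-Hi and 4.64 FPKM in MG. Both stood below MG in LCC, with log2 folds of -2.63 and -2.07. Cldn6, a claudin of embryonic epithelia, had 1.10 FPKM in LCC, 0.129 FPKM in E-Int29-Hi and 7.32 FPKM in MG, and its log2 fold was -2.88 for E-Int29-Hi over MG.

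The remaining claudins were not 4-fold apart in any comparison on the log2(FPKM + 1) scale. Cldn25, the name in the files for a gene now called Cldnd1, had 34.5 FPKM in LCC, 57.4 FPKM in E-Int29-Hi and 33.3 FPKM in MG. It was the leading claudin name in E-Int29-Hi, with 42.9% of claudin FPKM there, against 4.58% in LCC and 4.48% in MG. Cldn12 had 8.90 FPKM in LCC, 12.1 FPKM in E-Int29-Hi and 9.60 FPKM in MG. The other 17 claudins stayed at or under 4.78 FPKM, the value of Cldn23 in LCC. Cldn23 stood at 0.627 FPKM in E-Int29-Hi and 2.64 FPKM in MG, in the same order of libraries as Cldn4, with a log2 fold of 1.83 for LCC over E-Int29-Hi. Cldn18, a claudin of lung and stomach epithelium, stood at 0.318 FPKM in LCC and was listed at 0 in E-Int29-Hi and MG. Lung epithelial markers were present in LCC, as given above, and Cldn18 itself was under 1 FPKM there.

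Among the partners of claudins, occludin (Ocln), a 4-pass protein of the strands, had 15.3 FPKM in LCC, 1.010 FPKM in E-Int29-Hi and 17.3 FPKM in MG. Its log2 folds were 3.02 for LCC over E-Int29-Hi, -0.16 for LCC over MG and -3.19 for E-Int29-Hi over MG. The ZO scaffolds that tie these proteins to actin were not alike. Tjp3 (ZO-3), a scaffold of epithelia, had 1.402 FPKM in LCC, 0.282 FPKM in E-Int29-Hi and 4.77 FPKM in MG, with a log2 fold of -2.17 for E-Int29-Hi over MG. Tjp1 (ZO-1), the scaffold also found at cadherin contacts, had 19.4 FPKM in LCC, 29.5 FPKM in E-Int29-Hi and 38.0 FPKM in MG. The adhesion molecule F11r (JAM-A) had 48.6 FPKM in LCC, 45.5 FPKM in E-Int29-Hi and 30.6 FPKM in MG. Per FPKM of Tjp1 there was 0.793 FPKM of Ocln in LCC, against 0.0343 in E-Int29-Hi and 0.455 in MG.

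The wider tight junction and polarity genes held members with the same order. Of 33 compared in LCC over E-Int29-Hi, 4 were higher and 1 lower, where 4.64% of all genes were higher and 4.35% lower. In LCC over MG 0 were higher and 1 lower, where the all-gene shares were 1.33% and 2.63%. A count of 1 of 33 is near these shares. In E-Int29-Hi over MG 0 were higher and 4 lower, where the all-gene shares were 2.60% and 3.97%. The 4 were the same genes in both comparisons. Marveld2 (tricellulin), which closes the corners where 3 cells meet, had 10.3 FPKM in LCC, 0.426 FPKM in E-Int29-Hi and 11.4 FPKM in MG. Cgn (cingulin), a cytoplasmic plaque protein, had 17.0 FPKM in LCC, 0.677 FPKM in E-Int29-Hi and 18.7 FPKM in MG. Crb3, which marks the apical side, had 15.9 FPKM in LCC, 2.28 FPKM in E-Int29-Hi and 16.1 FPKM in MG. Llgl2, a polarity protein of the basolateral side, had 10.3 FPKM in LCC, 1.61 FPKM in E-Int29-Hi and 9.82 FPKM in MG. All 4 had log2 folds from -0.13 to 0.06 for LCC over MG. The scaffold Magi1 was the gene lower in LCC than in E-Int29-Hi, at 3.19 FPKM in LCC, 16.8 FPKM in E-Int29-Hi and 8.01 FPKM in MG. Jam2, an adhesion molecule of endothelium, was the gene lower in LCC than in MG, at 2.68 FPKM in LCC, 9.97 FPKM in E-Int29-Hi and 34.6 FPKM in MG. By the highest level in any library, the leading genes of this list were Csda (260.5 FPKM in LCC, 139.7 FPKM in E-Int29-Hi and 133.6 FPKM in MG), Amotl1 (18.7, 65.9 and 23.0 FPKM), Cxadr (23.1, 62.7 and 62.4 FPKM) and Prkci (20.9, 52.4 and 54.3 FPKM), none of which was 4-fold apart in any comparison.

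The low tight junction genes of E-Int29-Hi stood beside low luminal markers, of which 6 of 14 were higher and 0 lower in LCC than in E-Int29-Hi and 11 of 14 lower in E-Int29-Hi relative to MG. The luminal keratin Krt18 was at 2368 FPKM in LCC, 73.5 FPKM in E-Int29-Hi and 819 FPKM in MG. The luminal keratin Krt19 was at 244 FPKM in LCC, 16.2 FPKM in E-Int29-Hi and 488 FPKM in MG. Not all luminal genes were low in E-Int29-Hi. The luminal transcription factor Gata3 was at 17.5 FPKM in LCC, 47.2 FPKM in E-Int29-Hi and 20.7 FPKM in MG. Elf5, Prlr, Pgr, Esr1 and Prom1 also had negative log2 folds for LCC over E-Int29-Hi, but with another order of libraries. Each of these genes had its highest level in MG and its lowest in LCC. Pgr, for example, was at 0.179 FPKM in LCC, 2.07 FPKM in E-Int29-Hi and 43.9 FPKM in MG. The part of the luminal share in the junction values was not tested. Nor was that of lung epithelium, whose markers summed to 675 FPKM in LCC, against 16.6 FPKM in E-Int29-Hi and 17.7 FPKM in MG. In such bulk libraries, fewer cells of a type and less RNA of a gene per cell cannot be told apart.

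**Figure D2:**
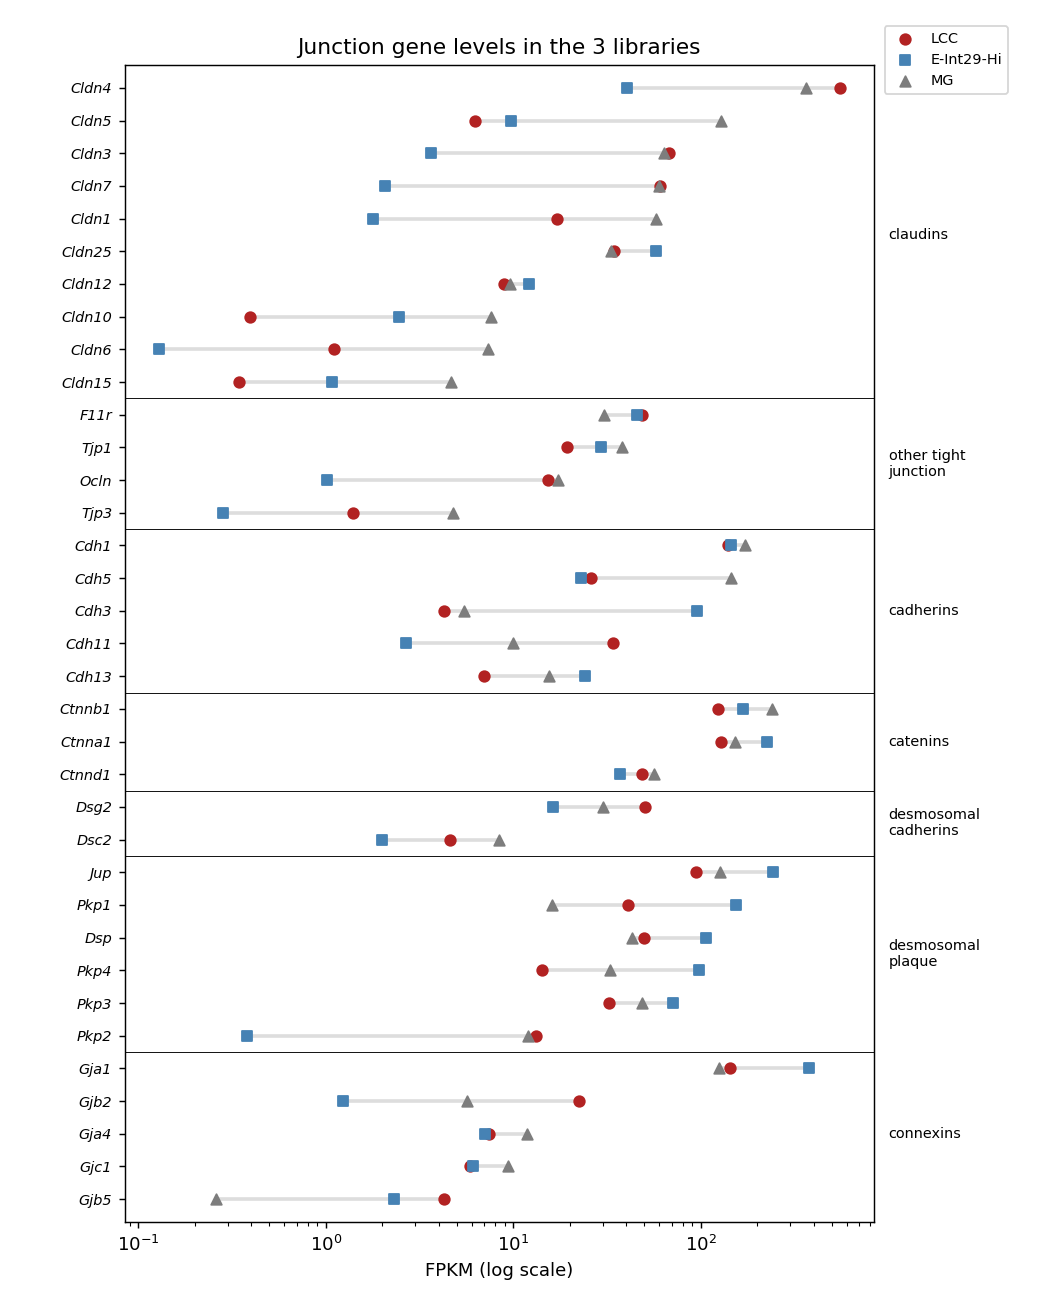
FPKM (x axis, log scale) in LCC (circles), E-Int29-Hi (squares) and MG (triangles) for 35 junction genes at 5 FPKM or more, or 4-fold apart in some comparison, grouped by kind of junction. Cldn3, Cldn7, Ocln and Pkp2 show the LCC and MG points close together and the E-Int29-Hi point far to the left, and Cdh3 shows the opposite.

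Classical cadherins make the adhesive bond of adherens junctions, each type binding mostly its own kind. E-cadherin (Cdh1), the cadherin of epithelia, stood at 139.9 FPKM in LCC, 145 FPKM in E-Int29-Hi and 171.5 FPKM in MG. Its log2 folds were -0.05 for LCC over E-Int29-Hi, -0.29 for LCC over MG and -0.24 for E-Int29-Hi over MG. P-cadherin (Cdh3), its chromosomal neighbour and in the gland a cadherin of the basal layer, stood at 4.24 FPKM in LCC, 95.1 FPKM in E-Int29-Hi and 5.48 FPKM in MG. In FPKM that was 22.4-fold higher in E-Int29-Hi than in LCC, and 17.3-fold higher in E-Int29-Hi relative to MG. The ratio of Cdh1 to Cdh3 was 32.9 in LCC, against 1.52 in E-Int29-Hi and 31.3 in MG. Basal markers stood the same way, with 12 of 12 lower in LCC than in E-Int29-Hi and 9 of 12 higher in E-Int29-Hi relative to MG, and the part of that in the Cdh3 values was not tested. The smooth muscle actin gene Acta2, made by basal cells, was at 84.2 FPKM in LCC, 1901 FPKM in E-Int29-Hi and 150.6 FPKM in MG.

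VE-cadherin (Cdh5), the endothelial cadherin, had 25.9 FPKM in LCC, 23.1 FPKM in E-Int29-Hi and 145 FPKM in MG. Its log2 fold was -2.44 for LCC over MG and -2.60 for E-Int29-Hi over MG, with 0.16 between LCC and E-Int29-Hi. Of 15 endothelial markers, 4 were lower in LCC relative to MG and 5 lower in E-Int29-Hi relative to MG, and all 15 stood at 1 FPKM or more in each library. Pecam1 had 40.5 FPKM in LCC, 31.3 FPKM in E-Int29-Hi and 132.5 FPKM in MG. The part of endothelial cells in the Cdh5 and Cldn5 values was not tested. The ratio of Cdh5 to Cldn5 differed between the libraries, at 4.16 in LCC, against 2.39 in E-Int29-Hi and 1.14 in MG.

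Among the 5 cadherins at 5 FPKM or more, only Cdh11, a cadherin of mesenchymal cells, had its highest level in LCC, at 33.9 FPKM in LCC, 2.67 FPKM in E-Int29-Hi and 9.96 FPKM in MG. Its log2 fold was 3.25 over E-Int29-Hi and 1.67 over MG. Fibroblast markers were also higher in LCC than in E-Int29-Hi (7 of 10), but against MG none of 10 was higher in LCC and 1 was lower. Their sum was 1430 FPKM in LCC, below the 3157 FPKM in MG, while Cdh11 was 3.41-fold higher in LCC than in MG in FPKM. Leukocyte markers (13 genes) summed to 277 FPKM in LCC, 46.7 FPKM in E-Int29-Hi and 78.4 FPKM in MG. The part of fibroblasts, leukocytes or lung cells in the Cdh11 value was not tested. Cdh13 (T-cadherin), which is anchored to the membrane by a lipid and has no tail for catenins, had 6.99 FPKM in LCC, 24.1 FPKM in E-Int29-Hi and 15.5 FPKM in MG. The other 18 cadherins with a value stayed at or under 3.48 FPKM, the value of Cdh6 in MG. N-cadherin (Cdh2) was among them, at 1.83 FPKM in LCC, 3.48 FPKM in E-Int29-Hi and 1.53 FPKM in MG. Of all cadherin FPKM, Cdh1 held 65.0% in LCC, against 47.8% in E-Int29-Hi and 47.6% in MG, with Cdh3 second in E-Int29-Hi at 31.4%, Cdh5 second in MG at 40.4% and Cdh11 second in LCC at 15.8%.

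The 3 catenins, which link cadherin tails to actin, were not 4-fold apart in any comparison. Beta-catenin (Ctnnb1), also the effector of Wnt signalling, had 122.8 FPKM in LCC, 167.7 FPKM in E-Int29-Hi and 239.5 FPKM in MG. Alpha-catenin (Ctnna1), which holds actin, had 127.8 FPKM in LCC, 225 FPKM in E-Int29-Hi and 152 FPKM in MG. The p120 catenin (Ctnnd1), which keeps cadherins at the surface, had 48.5 FPKM in LCC, 37.0 FPKM in E-Int29-Hi and 56.2 FPKM in MG. Each gene had its own order of libraries, with MG highest for Ctnnb1 and Ctnnd1 and E-Int29-Hi highest for Ctnna1.

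Of 18 adherens junction partners compared, 1 was higher and 2 lower in LCC than in E-Int29-Hi, 0 were apart between LCC and MG, and 1 was higher and 1 lower in E-Int29-Hi relative to MG. Over all genes, the shares higher and lower were 4.64% and 4.35%, 1.33% and 2.63%, and 2.60% and 3.97% in that order. The counts are too small to set this list apart from all genes. Nectins are immunoglobulin-type adhesion molecules of this junction, and 2 of them stood in opposite orders. Pvrl4 (nectin 4) had 12.5 FPKM in LCC, 0.587 FPKM in E-Int29-Hi and 7.75 FPKM in MG. Pvrl1 (nectin 1) had 12.6 FPKM in LCC, 73.2 FPKM in E-Int29-Hi and 19.4 FPKM in MG. Ctnnd2, a relative of p120 catenin known from neurons, had 0.162 FPKM in LCC, 18.2 FPKM in E-Int29-Hi and 1.90 FPKM in MG. The actin-binding genes Actn1 (288 FPKM in LCC, 379 FPKM in E-Int29-Hi and 142 FPKM in MG), Actn4 (244, 371 and 243 FPKM) and Vcl (70.9, 148 and 75.8 FPKM) had, beside Epcam, the highest levels of the list in any library. Epcam, whose protein was used to gate E-Int29-Hi, had 325 FPKM in LCC, 279 FPKM in E-Int29-Hi and 209 FPKM in MG. Of the atypical cadherins, which include the planar polarity genes, 0 were higher and 1 lower of 9 in LCC over E-Int29-Hi, 0 were apart of 6 in LCC over MG and 0 of 9 in E-Int29-Hi over MG. Beside the same all-gene shares, these counts too are too small to set the list apart. The lower gene was Celsr2, at 12.4 FPKM in LCC, 77.1 FPKM in E-Int29-Hi and 36.0 FPKM in MG. Fat1 had 76.1 FPKM in LCC, 72.2 FPKM in E-Int29-Hi and 42.9 FPKM in MG, Clstn1 had 45.4, 94.7 and 35.9 FPKM, and Dchs1 had 1.69, 8.43 and 7.28 FPKM.

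**Figure D3:**
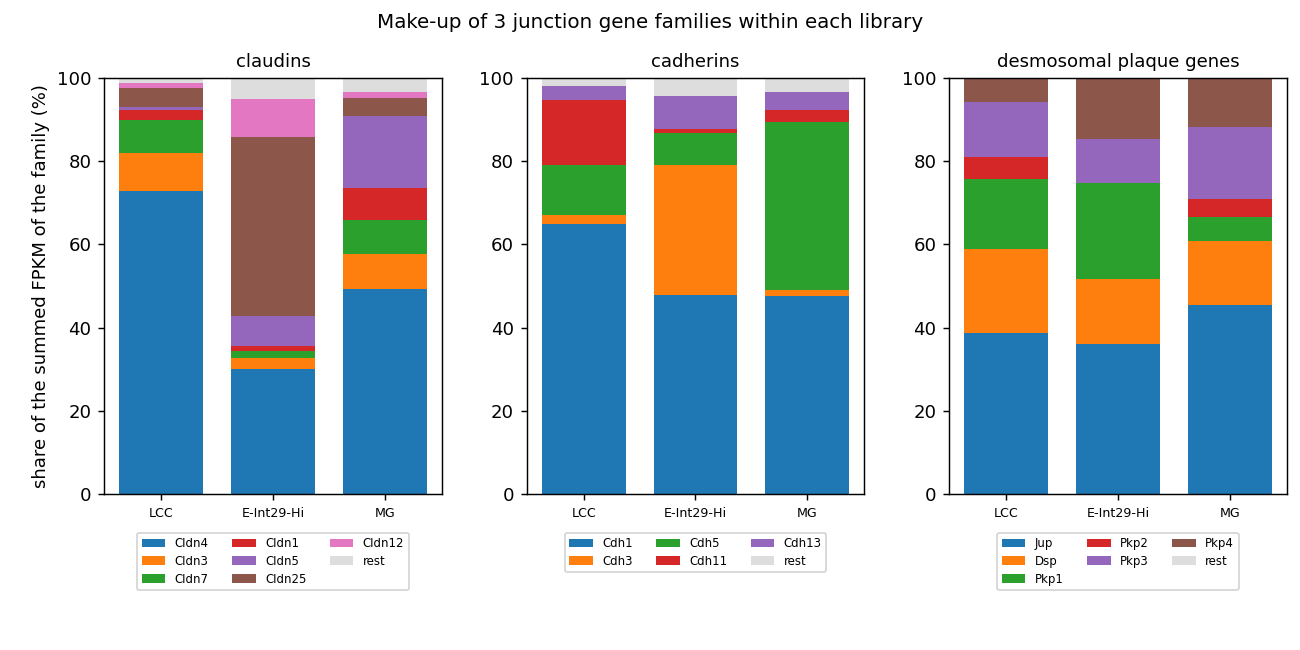
Share of the summed FPKM of claudins, cadherins and desmosomal plaque genes (y axis, percent) held by the leading genes of each group in LCC, E-Int29-Hi and MG (bars, x axis). Cldn4 holds 72.9% of claudin FPKM in LCC, against 30.1% in E-Int29-Hi and 49.3% in MG. Claudin FPKM includes Cldn25, now called Cldnd1, which holds 42.9% in E-Int29-Hi. Cdh3 holds 1.97%, 31.4% and 1.52% of cadherin FPKM.

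At desmosomes the 4-fold differences lay among plaque genes, with none among the desmosomal cadherins. Desmoglein 2 (Dsg2), the desmoglein of simple epithelia, was the leading desmosomal cadherin of every library, at 50.2 FPKM in LCC, 16.3 FPKM in E-Int29-Hi and 30.3 FPKM in MG. Its log2 fold of 1.56 for LCC over E-Int29-Hi did not reach 4-fold. Dsc2, its desmocollin partner, had 4.62 FPKM in LCC, 1.99 FPKM in E-Int29-Hi and 8.36 FPKM in MG. The other 7 desmosomal cadherins stayed at or under 1.78 FPKM, the value of Dsc3 in E-Int29-Hi. Those of differentiated epidermis (Dsg1a, Dsg1b, Dsg1c, Dsg4 and Dsc1) were all listed at 0 in LCC and under 0.05 FPKM elsewhere, and the near-identical Dsg1 copies can share reads. Of the desmosomal cadherins compared, 0 of 4 were apart between LCC and E-Int29-Hi and 0 of 3 between each of these and MG. With all-gene shares of 1.33% to 4.64% in either direction, 0 of so few genes does not set them apart from all genes.

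In the plaque, 2 plakophilins differed in opposite directions between E-Int29-Hi and each of the other libraries. Pkp2, the plakophilin of simple epithelia and heart, had 13.2 FPKM in LCC, 0.380 FPKM in E-Int29-Hi and 11.95 FPKM in MG. Its log2 folds were 3.37 for LCC over E-Int29-Hi, 0.14 for LCC over MG and -3.23 for E-Int29-Hi over MG. Pkp1, the plakophilin of stratified epithelia, had 40.9 FPKM in LCC, 154.9 FPKM in E-Int29-Hi and 16.003 FPKM in MG, with log2 folds of -1.90, 1.302 and 3.20 in the same comparisons. The ratio of Pkp1 to Pkp2 was therefore 3.09 in LCC, against 408 in E-Int29-Hi and 1.34 in MG. Pkp4, a relative found at both desmosomes and adherens junctions, had 14.2 FPKM in LCC, 97.9 FPKM in E-Int29-Hi and 33.0 FPKM in MG and was lower in LCC than in E-Int29-Hi, with a log2 fold of -2.70. Pkp3, present in most epithelia, had 32.2 FPKM in LCC, 71.5 FPKM in E-Int29-Hi and 48.4 FPKM in MG.

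Plakoglobin (Jup), which serves both desmosomes and adherens junctions, had 94.6 FPKM in LCC, 242 FPKM in E-Int29-Hi and 126.7 FPKM in MG. Desmoplakin (Dsp), which grips keratin, had 49.6 FPKM in LCC, 106.4 FPKM in E-Int29-Hi and 42.8 FPKM in MG. Neither reached 4-fold in any comparison, but 5 of the 6 plaque genes were at their highest in E-Int29-Hi, with Pkp2 the exception. The plaque genes summed to 244.7 FPKM in LCC, 673 FPKM in E-Int29-Hi and 278.7 FPKM in MG. The desmosomal cadherins had the other order, summing to 56.2 FPKM in LCC, 20.5 FPKM in E-Int29-Hi and 39.5 FPKM in MG. The ratio of Dsg2 to Dsp was 1.012 in LCC, against 0.153 in E-Int29-Hi and 0.708 in MG.

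The keratins that desmosomes anchor differed with the plakophilins, with Krt5 and Krt14 lower and Krt8 and Krt18 higher in LCC than in E-Int29-Hi. Over all genes, 4.35% were lower and 4.64% higher in that comparison. Of 8 desmosome partners, 0 were apart between LCC and MG, where 1.33% of all genes were higher and 2.63% lower. In E-Int29-Hi over MG, 2 of 8 were higher (Krt5 and Krt14) and 3 lower (Krt18, Ppl and Evpl), where the all-gene shares were 2.60% and 3.97%. Krt14, a basal keratin, had 209.8 FPKM in LCC, 2380 FPKM in E-Int29-Hi and 103.9 FPKM in MG, and Krt5 had 92.3, 426 and 60.7 FPKM. Krt8, the partner of Krt18, had 1258 FPKM in LCC, 179.7 FPKM in E-Int29-Hi and 624 FPKM in MG. Periplakin (Ppl), a linker of keratin to the plaque, had 5.90 FPKM in LCC, 5.04 FPKM in E-Int29-Hi and 26.4 FPKM in MG. The part of the luminal and basal shares, or of lung epithelium, in the plakophilin values was not tested.

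Connexins were led by Gja1, the connexin of myoepithelial and many connective tissue cells, at 143.5 FPKM in LCC, 378 FPKM in E-Int29-Hi and 125.5 FPKM in MG. Its log2 folds of -1.39 for LCC over E-Int29-Hi and 1.58 for E-Int29-Hi over MG did not reach 4-fold.

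Gjb5, a connexin of skin, stood highest in LCC, at 4.29 FPKM in LCC, 2.30 FPKM in E-Int29-Hi and 0.259 FPKM in MG. It was the 1 junction gene higher in LCC than in MG, with a log2 fold of 2.07. Gjb2, a connexin of the luminal layer that is known to increase in lactation, was highest in LCC too, at 22.5 FPKM in LCC, 1.23 FPKM in E-Int29-Hi and 5.69 FPKM in MG. Its log2 fold was 3.39 over E-Int29-Hi and 1.81 over MG. Skin keratinocyte markers (8 genes) summed to 13.1 FPKM in LCC, 1.88 FPKM in E-Int29-Hi and 22.6 FPKM in MG, with Sprr1a the highest of them (11.9 FPKM in LCC, 0.962 FPKM in E-Int29-Hi and 20.3 FPKM in MG), and Krt1, Flg, Krtdap, Ivl and Krt2 were listed at 0 in LCC.

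Gja4, an endothelial connexin, had 7.43 FPKM in LCC, 7.03 FPKM in E-Int29-Hi and 11.9 FPKM in MG. It was not 4-fold lower in LCC or E-Int29-Hi than in MG, unlike the endothelial Cldn5 and Cdh5. Gjc1, a connexin of vascular muscle and heart conduction tissue, had 5.88 FPKM in LCC, 6.11 FPKM in E-Int29-Hi and 9.33 FPKM in MG. A further 13 connexins stayed at or under 1.27 FPKM, the value of Gjb1 in MG, which was listed at 0 in LCC and stood at 0.172 FPKM in E-Int29-Hi. Of the pannexins, which form channels of one membrane, Panx1 had 12.02 FPKM in LCC, 41.6 FPKM in E-Int29-Hi and 6.98 FPKM in MG, with a log2 fold of 2.42 for E-Int29-Hi over MG. Panx2 and Panx3 were under 1 FPKM in every library.

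**Figure D4:**
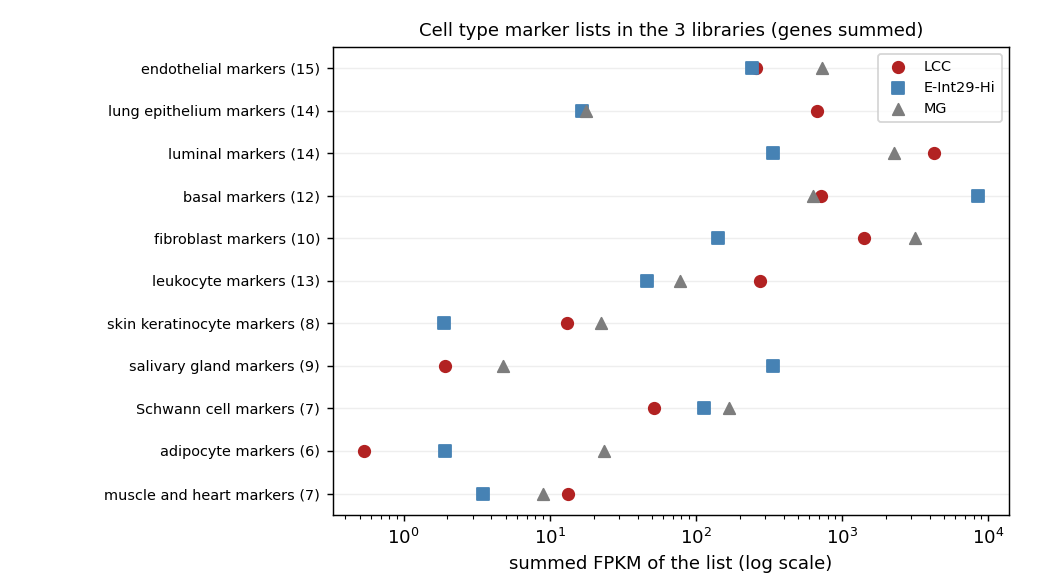
Summed FPKM (x axis, log scale) of marker lists for gland layers and other cell types (y axis, number of genes in brackets) in LCC (circles), E-Int29-Hi (squares) and MG (triangles). The basal sum is highest in E-Int29-Hi at 8589 FPKM, the luminal sum in LCC at 4259 FPKM, and the endothelial and fibroblast sums in MG at 736 and 3157 FPKM.

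Across the 51 junction genes at 1 FPKM or more, the order of the libraries was spread widely. MG was the highest library for 21 genes, E-Int29-Hi for 18 and LCC for 12. LCC was highest in 3 with E-Int29-Hi second and in 9 with MG second, or 5.88% and 17.6%, against 12.5% and 29.1% of all genes at that level. E-Int29-Hi was highest with MG second in 21.6%, against 17.3% of all genes, and with LCC second in 13.7%, against 7.93%. MG was highest with E-Int29-Hi second in 21.6%, against 14.7% of all genes, and with LCC second in 19.6%, against 18.5%.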

How the data were processed

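The libraries were made from poly(A) RNA of 3 pools, per the labels. FPKM values with a per-gene status were deposited for each library. The submitters' processing notes name TopHat 1.4.1, Cufflinks 1.3.0 and build mm9 but not what each did. Annotation release: not given in the sources used here.

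Genes of OK status in all libraries were used (112 were left out, and 78 had no value). Where a name stood on several gene models, the one with the highest summed FPKM was kept, which left 22077 names. Log2 folds used a pseudocount of 1 FPKM and genes reaching 1 FPKM in either library. Read totals are unknown. The commonest ratio among genes under 0.1 FPKM, a rough sign of relative depth, was 1.12 for LCC over E-Int29-Hi, 1.17 for LCC over MG and 1.05 for E-Int29-Hi over MG. In that order, it was held by only 15 of 391, 18 of 331 and 129 of 1184 such genes. A ratio above 1 would go with fewer fragments in the library named first. Names listed at 0 numbered 6819 for LCC, 4952 for E-Int29-Hi and 3163 for MG.

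Members at 5 FPKM or more, or 4-fold apart in a comparison, were named, others by range. Of partner lists, the 4 highest genes and those 4-fold apart at 10 FPKM or more were named, and of marker lists up to the 3 highest. Genes given outside this rule (Cdh2, Cldn18, Cldn23, Cdh6, Dsc3, Gjb1, Evpl, the luminal genes beyond the 3 highest and those listed at 0) were chosen after their values were seen. Some members are counted but not reported here by name or drawn. The members and lists were chosen with earlier results of these data known. RefSeq promoters and gene neighbours came from GRCm38.p6, a build other than mm9, and coordinates refer to it alone. The steps were tested on simulated data. Alternatives were other pseudocounts, filters, scalings and name or status rules. Python 3.11.15, numpy 2.4.6, pandas 2.3.3 and matplotlib 3.10.9 were used.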

Additional observations from a re-analysis of the deposited data

How the results depend on the processing

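No paired analysis was possible because each group had 1 library and the results come from no test. Of the junction genes named above as 4-fold apart, none changed sign under any alternative, but this was fixed in advance. Other pseudocounts, filters and status rules cannot reverse the order of 2 values, and the rescalings were too small to reverse a 4-fold difference. The kept signs therefore say nothing about how firm these differences are. The junction gene medians also kept their sign. Counts of junction genes moved as follows. In LCC over E-Int29-Hi the 8 higher became 5 with a pseudocount of 5, and the 3 lower became 8 with a pseudocount of 0.1, 5 with median ratio scaling and 10 with rescaling to one sum (TPM). In LCC over MG the 1 higher (Gjb5) became 2 with a pseudocount of 0.1 and 0 with a pseudocount of 5, a filter at 5 FPKM or median ratio scaling, and the 4 lower became 8 with a pseudocount of 0.1, 2 with 5 and 9 with TPM. In E-Int29-Hi over MG the 4 higher became 7 with a pseudocount of 0.1, and the 10 lower became 6 with 5. A 2-fold limit, chosen after seeing the data, gave 10 higher and 16 lower in LCC over E-Int29-Hi, 6 higher and 12 lower in LCC over MG, and 11 higher and 17 lower in E-Int29-Hi over MG. With a pseudocount of 5, Cldn1, Ocln and Pkp2 were no longer 4-fold apart between LCC and E-Int29-Hi, nor Cldn10, Cldn15 and Gjb5 between LCC and MG, nor Cldn6, Ocln, Pkp2 and Tjp3 between E-Int29-Hi and MG. The cause of these moves was not tested beyond the settings themselves. The all-gene median of 0.26 for LCC over E-Int29-Hi became 0.01 with median ratio scaling, and the split of 564 higher and 528 lower genes became 447 and 685. For E-Int29-Hi over MG 323 and 494 became 392 and 415 with that scaling, and for LCC over MG 166 and 327 became 157 and 919 with TPM, where the all-gene median was -0.41. TPM raised all values while the pseudocount and the filter stayed at 1, so both weighed less. In LCC over MG the genes compared rose from 12443 to 14421. The moves with TPM therefore mix scaling with a smaller pseudocount and a looser filter. Low genes are limited by depth, which is unknown, and 1 library per group gives no spread.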
